A study of Mus musculus with 5 samples.

Results

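The genes described here are the nuclear genes for the subunits of the mitochondrial oxidative phosphorylation complexes. They were chosen by symbol prefix (Ndufa, Ndufb, Ndufc, Ndufs and Ndufv for complex I; Sdha to Sdhd for complex II; Uqcr for complex III; Cox4i and Cox5 to Cox8 for complex IV; Atp5 for complex V) and by a measured value, a mean over the 5 libraries of at least 1 TPM (transcripts per 1000000 transcripts). Assembly factors and other genes with symbols beginning Ndufaf, Sdhaf, Atp5s or Uqcc were left out. Cox7a2l, whose protein is known as a supercomplex assembly factor, was kept by its prefix and counted with complex IV. Of 19726 listed genes, 84 matched a prefix and 80 reached the mean: 38 of complex I, 4 of complex II, 8 of complex III, 14 of complex IV and 16 of complex V. The 4 that did not were Cox4i2 (mean 0.582 TPM), Cox6a2 (0.393 TPM), Cox8b (0.656 TPM) and Cox8c (0.0885 TPM). Just inside the limit were Ndufa4l2 (1.17 TPM) and Cox6b2 (1.25 TPM). Ndufa4l2 and Cox7a1 passed only through the tumor libraries, since their spleen means were 0.725 and 0.975 TPM, so their difference was partly fixed by the choice. The prefix places Ndufa4 with complex I, although its protein is known as a subunit of complex IV. Cyc1, the cytochrome c1 gene of complex III, lies outside the prefixes. None of the 13 mitochondrially encoded subunits is listed in the files, so nothing was measured of the mitochondrial genome.

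Total RNA from 300000 cells labelled as CD4+ T cells was sequenced per library, with ribosomal RNA depleted, strand kept and paired reads of 75 bp. The cells came from spleen (n = 3, replicates 1 to 3) or from MC38 tumors (n = 2, replicates 2 and 3). MC38 cells are a colon carcinoma line that grows as a transplant in mice. All mice were wild-type C57/Bl6j aged 7 weeks, so tissue was the one difference between the groups that the labels give. Nothing in the labels says that replicates came from separate animals, so p-values measure only the spread between these libraries, which may be technical.

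Oxidative phosphorylation passes electrons from NADH (complex I) or succinate (complex II) through coenzyme Q to complex III, then through cytochrome c to complex IV, which reduces oxygen. Complexes I, III and IV pump protons across the inner mitochondrial membrane, and complex V, the ATP synthase, uses the return flow to make ATP. T cells draw on this pathway at rest and raise it during activation, and resting macrophages and other myeloid cells express the same subunits.

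The labelled cell type was checked against markers before the subunits were read. All 15 T cell identity genes were lower in tumor, with a summed level of 1136 to 1507 TPM in spleen against 362 and 278 TPM in tumor. Cd4 itself stood at 97.7, 131 and 116 TPM in spleen and at 26.8 and 27.2 TPM in tumor. All 16 macrophage and monocyte markers were higher in tumor, with a sum of 64.7 to 81.1 TPM in spleen against 7445 and 8186 TPM in tumor, and Adgre1, which encodes F4/80, stood at 0.312 to 0.440 TPM in spleen against 103 and 127 TPM. Of 7 epithelial tumor cell markers none reached a mean of 1 TPM, and their sum was 2.15 to 3.44 TPM in every library. In such bulk samples, fewer cells of a type and less RNA per cell cannot be told apart. The macrophage and T cell lists moved with every result below, and their part in it was not tested. The number of reads behind each library is not known from TPM, so no counting error is given. The 95th percentile of 1134 olfactory receptor genes, which lymphocytes are not known to use, was 10.6 to 16.2 TPM in spleen and 7.59 and 10.7 TPM in tumor, and 6 members lay under it in every library (Atp5g2, Cox6b2, Cox7a1, Cox7b2, Ndufa11 and Ndufa4l2). Another 4 (Ndufa8, Ndufs8, Sdhc and Uqcrq) lay under it in all 3 spleen libraries, and 34 members in at least 1 library, so their low values, and ratios built on them, are less certain.

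Most nuclear subunit genes stood higher in the tumor libraries on the deposited TPM. The summed level of the 80 genes was 2293, 2939 and 2545 TPM in spleen and 4767 and 5222 TPM in tumor, a ratio of group means of 1.93. Both tumor sums lay above all spleen sums. By limma on log2(TPM + 1) across 12979 genes, with Benjamini-Hochberg adjustment and an adjusted p below 0.05, 62 members rose, 2 fell (Cox7a2l and Cox7b2) and 16 did not pass. Among all tested genes 40.9% rose and 18.1% fell. The median log2 difference, tumor minus spleen, was 1.02 over the members and 0.23 over all tested genes. The second median depended on how many low genes were tested. With the limit on the mean raised from 1 to 5 TPM, 4387 of 8535 genes rose and 1456 fell, at a median of 0.49. Of the 75 members then left, 60 rose and 1 fell, at a median of 1.03. With no limit the medians were 1.02 for the members and -0.03 for all genes tested. Both tumor libraries lay above all 3 spleen libraries for 66 members and below them for 1, Cox7a2l, against 46.6% and 23.8% of tested genes. Tested against a 2-fold change, 11 members rose and none fell, against 16.9% and 2.11% of tested genes. These 11 were Cox5a, Cox5b, Cox6a1, Cox6b1, Cox7a1, Cox8a, Ndufb8, Ndufb9, Ndufc2, Sdhd and Uqcrq. Cox7a1 here, and Cox7a1 and Ndufa4l2 among the 62, became members only through the tumor libraries, so their rises were partly fixed by the choice.

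**Figure D1:**
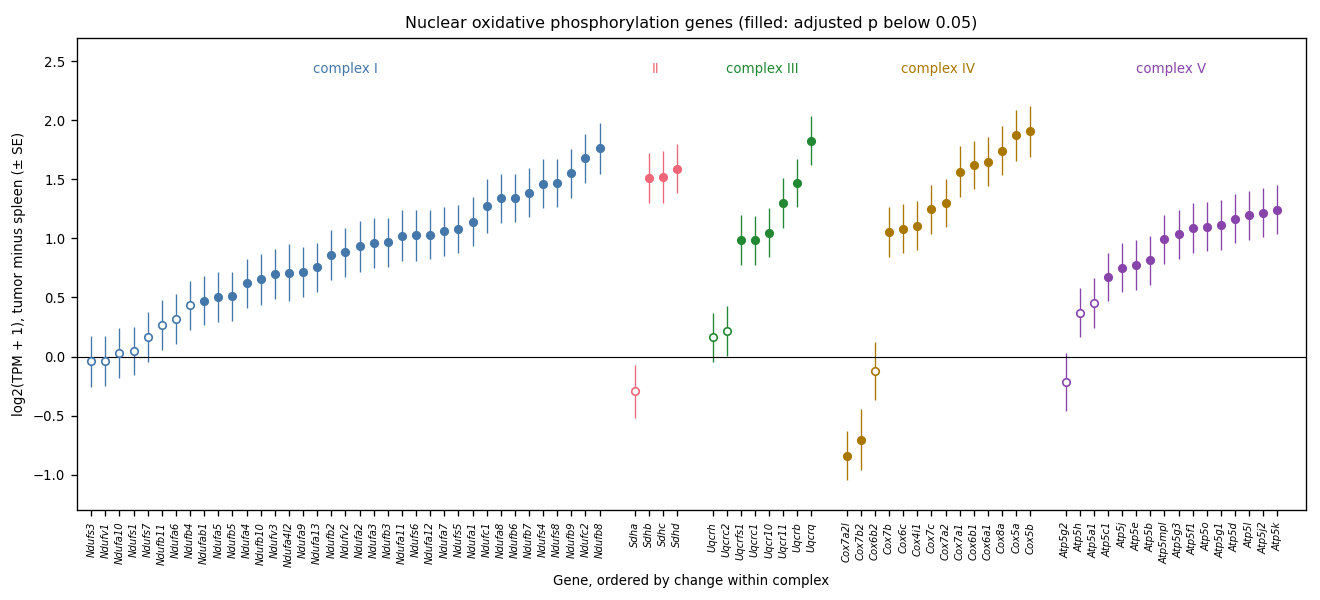
Change of 79 of the 80 genes, ordered within their complex. The y axis is the difference in log2(TPM + 1), tumor minus spleen, with its standard error; filled points passed limma at an adjusted p below 0.05. On deposited TPM 62 points are filled above zero and 2 below, and the lowest, Cox7a2l at -0.84, is in complex IV. With equal totals the count was 23 above and 21 below.

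The direction of the group as a whole depended on how libraries were put on one scale. The listed genes sum to 26.9% to 36.0% of the 1000000 to which TPM are scaled in spleen and 56.9% and 59.6% in tumor, so listed genes as a body are higher in tumor. As a share of the listed total, the members took 0.853%, 0.817% and 0.871% in spleen and 0.800% and 0.917% in tumor, and these shares overlap. With Lars2, the gene with the largest listed share, left out, the shares were 1.03%, 1.09% and 1.08% against 0.993% and 1.02%, so both tumor shares then lay below the spleen shares. With equal listed totals, 23 members rose and 21 fell, where 21.0% of tested genes rose and 51.3% fell. The median difference was then 0.14 for the members and -0.54 for all tested genes. Scaled on the 15 T cell identity genes, 79 members rose and none fell, where 95.0% of tested genes rose and 0.855% fell, and the medians were 3.09 and 2.11. Relative to the median of all tested genes, the members' median was higher by 0.79 on deposited TPM, 0.68 with equal totals and 0.98 with T cell identity scaling. These gaps hold for the limit of 1 TPM. On deposited TPM the gap was smaller at 5 TPM, with medians of 1.03 and 0.49, and larger with no limit.

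**Figure D2:**
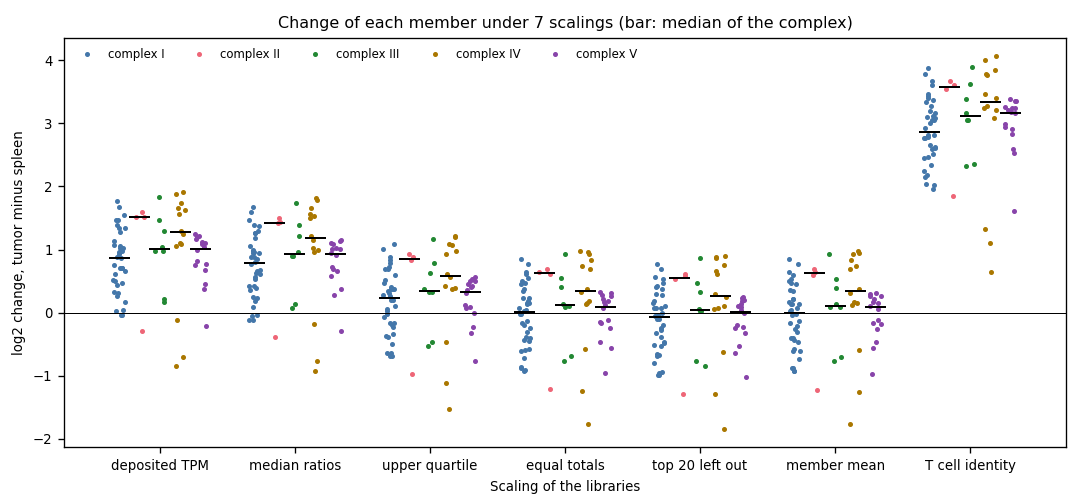
Change of each gene under 7 ways of scaling the libraries, coloured by complex. The y axis is the log2 difference, tumor minus spleen; bars mark the median of each complex. The median of all members was 1.02 on deposited TPM, 0.14 with equal totals and 3.09 with T cell identity scaling, so the whole cloud of points moves with the scaling.

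Under all 7 scalings tried, 19 members rose, beside 20.3% of all tested genes, a share near the members' own. They were Ndufa8, Ndufb6, Ndufb7, Ndufb8, Ndufb9, Ndufc2, Ndufs4 and Ndufs8 of complex I, Sdhb, Sdhc and Sdhd of complex II, Uqcrb and Uqcrq of complex III, and Cox5a, Cox5b, Cox6a1, Cox6b1, Cox7a1 and Cox8a of complex IV. No complex V gene was among them. Cox7a1 became a member only through the tumor libraries, so its place here was partly fixed by the choice. Cox7a2l and Cox7b2 fell under the 6 scalings other than T cell identity, as 18.0% of tested genes did. Of the members, 21 rose under one scaling and fell under another, Cox7a2l among them. The share of all tested genes that did so was not counted. Scaled on T cell identity genes 95.0% of tested genes rose, and with equal totals 51.3% fell. Such turns were therefore not particular to the members.

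Ratios within a library do not move with scaling, and they showed that complex IV did not keep its proportion to the other complexes. Complex IV made up 23.0%, 22.0% and 22.2% of the members' summed TPM in spleen and 26.6% and 26.8% in tumor. Complex I took 31.0% to 31.1% in spleen and 29.5% and 28.7% in tumor, and complex III 10.6% to 10.9% against at most 10.1%. Complex V took 31.7% to 32.3% against 30.6% and 31.0%. For complex IV both tumor shares lay above all spleen shares, and for complexes I, III and V both lay below them. The shares of a library sum to 100%, so a larger share of complex IV lowers the others. The lower shares are therefore no separate results. Complex II, at 3.43% to 4.24% in spleen and 3.24% and 3.45% in tumor, overlapped. The ratio of the summed levels, tumor over spleen on deposited TPM, was 2.30 for complex IV, 1.86 for complex V, 1.80 for complexes I and III and 1.67 for complex II.

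**Figure D3:**
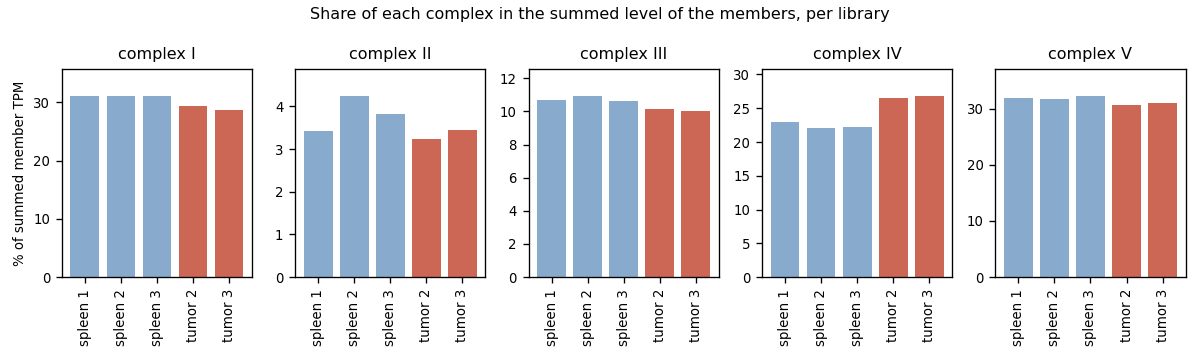
Share of each complex in the summed TPM of the 80 members, 1 bar per library, 1 panel per complex; the y axes start at 0 and differ between panels. Complex IV stands at 22.0% to 23.0% in the 3 spleen libraries and at 26.6% and 26.8% in the 2 tumor libraries.

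In complex I, the NADH dehydrogenase, 29 of 38 genes rose and none fell on deposited TPM, with a median log2 difference of 0.87. With equal totals 8 rose and 13 fell, a share of rises near that of all tested genes. Of all tested genes 40.9% rose and 18.1% fell on deposited TPM, and 21.0% rose and 51.3% fell with equal totals. The 7 nuclear core subunits, which carry the flavin and the iron-sulfur clusters, were grouped after their values had been seen: 2 rose, none fell and the median was 0.17. With equal totals 1 rose and 5 fell, with a median of -0.72. Of the 31 other subunits, which surround the core, 27 rose and the median was 0.96. The core subunits together made up 6.50%, 6.04% and 5.89% of the members' sum in spleen and 4.12% and 4.17% in tumor. The groups did not overlap, but the grouping followed the values, so this separation is no separate support.

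Ndufs1, the largest nuclear-encoded core subunit and the holder of several iron-sulfur clusters, stood at 44.9, 44.5 and 40.2 TPM in spleen and 43.3 and 46.0 TPM in tumor. Its groups overlapped, and the log2 difference of 0.05 ± 0.21 (SE) did not pass (limma, adjusted p 0.86). Ndufv1, the flavin-binding subunit that accepts electrons from NADH, stood at 13.4, 19.2 and 15.6 against 13.4 and 17.8 TPM (-0.04 ± 0.21). Ndufs3, another core subunit, stood at 15.7, 23.2 and 16.6 against 15.3 and 20.6 TPM (-0.04 ± 0.22). For both, the groups overlapped, with the lowest tumor value close to the lowest spleen value. About 49.3% of the 31-base stretches of the Ndufs3 transcripts also occur in other annotated genes, so the level of Ndufs3 is uncertain. Ndufs7, a further core subunit with an iron-sulfur cluster, also did not pass (0.17). With equal totals Ndufs1 (-0.87), Ndufv1 (-0.91), Ndufs3 (-0.92) and Ndufs7 (-0.72) were called lower.

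Ndufs8, a core subunit with 2 iron-sulfur clusters and a spleen level under that of the olfactory receptor genes, stood at 7.60, 7.20 and 6.14 TPM in spleen and 20.9 and 21.2 TPM in tumor, a log2 difference of 1.47 ± 0.21 (limma, adjusted p 2.5e-08). Ndufv2, the iron-sulfur partner of Ndufv1, stood at 26.0, 28.7 and 29.8 against 51.1 and 54.3 TPM (0.88 ± 0.21). In both genes the tumor libraries lay well above every spleen library. The ratio of Ndufs8 to Ndufs1 within a library was 0.169, 0.162 and 0.153 in spleen and 0.482 and 0.461 in tumor. The ratio of Ndufv2 to Ndufv1 was 1.93, 1.49 and 1.91 against 3.81 and 3.05. Both ratios were higher in each tumor library than in any spleen library, and neither moves with scaling. The pairs were chosen with these values known, so the separation repeats the differences above and is no separate support.

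The largest differences in complex I were in accessory subunits. Ndufb8, in the membrane arm, stood at 15.9, 24.7 and 19.7 TPM in spleen and 66.7 and 72.6 TPM in tumor (log2 difference 1.76 ± 0.21, limma, adjusted p 6.4e-10). Ndufc2, also of the membrane arm, stood at 13.9, 17.9 and 16.2 against 49.0 and 57.6 TPM (1.68 ± 0.21), and Ndufb9 at 17.3, 22.3 and 19.0 against 53.8 and 64.5 TPM (1.55 ± 0.21). All 3 were separated by a wide gap between the groups. At the other end of the accessory subunits, Ndufa10 stood at 24.5, 35.6 and 31.9 against 32.9 and 29.1 TPM (0.03 ± 0.21), with overlap. The highest means over the 5 libraries in the complex I list were those of Ndufa4 (58.9, 73.0 and 66.8 against 106 and 98.3 TPM) and Ndufa3 (40.6, 53.1 and 38.7 against 80.3 and 92.4 TPM). Both rose on deposited TPM (0.62 and 0.96). With equal totals Ndufa4 was lower by the same test (-0.30), and without spleen replicate 3, tumor replicate 2 or tumor replicate 3 its rise was not called.

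Complex II, succinate dehydrogenase, joins the citric acid cycle to the respiratory chain and is encoded by 4 nuclear genes. Sdha encodes the flavoprotein that oxidizes succinate. Its level was 46.2, 80.1 and 57.3 TPM in spleen and 41.6 and 56.5 TPM in tumor. The groups overlapped and the log2 difference of -0.29 ± 0.22 did not pass (limma, adjusted p 0.25), but without spleen replicate 1 it was called lower (-0.48). Sdhb, the iron-sulfur subunit, stood at 13.9, 19.3 and 18.3 TPM in spleen and 48.3 and 52.3 TPM in tumor (1.51 ± 0.21). The membrane anchors moved alike: Sdhc stood at 5.31, 9.72 and 8.69 against 21.8 and 26.1 TPM (1.52 ± 0.22). Sdhd stood at 13.2, 15.6 and 13.1 against 42.8 and 45.2 TPM (1.59 ± 0.21, limma, adjusted p 4.2e-09). For Sdhb, Sdhc and Sdhd both tumor values lay far above the highest spleen value, and all 3 rose under all 7 scalings.

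The proportions of the 4 transcripts differed between the tissues. Sdha made up 58.7%, 64.2% and 58.9% of the summed TPM of the 4 genes in spleen and 26.9% and 31.4% in tumor. Sdhb made up 15.5% to 18.8% in spleen and 31.3% and 29.1% in tumor. The ratio of Sdha to Sdhb was 3.32, 4.15 and 3.14 in spleen and 0.861 and 1.08 in tumor, and that of Sdha to Sdhd 3.49, 5.13 and 4.37 against 0.971 and 1.25. Neither ratio overlapped between the tissues. Because Sdha and Sdhd had the lowest and the highest difference of the 4 genes, the separation of their ratio follows from that choice. Scaled on the members themselves, so that only unequal change among them is left, Sdha fell (-1.22) while Sdhb (0.60), Sdhc (0.64) and Sdhd (0.68) rose. Under this scaling 26 members rose and 22 fell, beside 21.5% and 53.1% of tested genes. At most 1.86% of the 31-base stretches of any of the 4 genes occur in another gene.

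**Figure D4:**
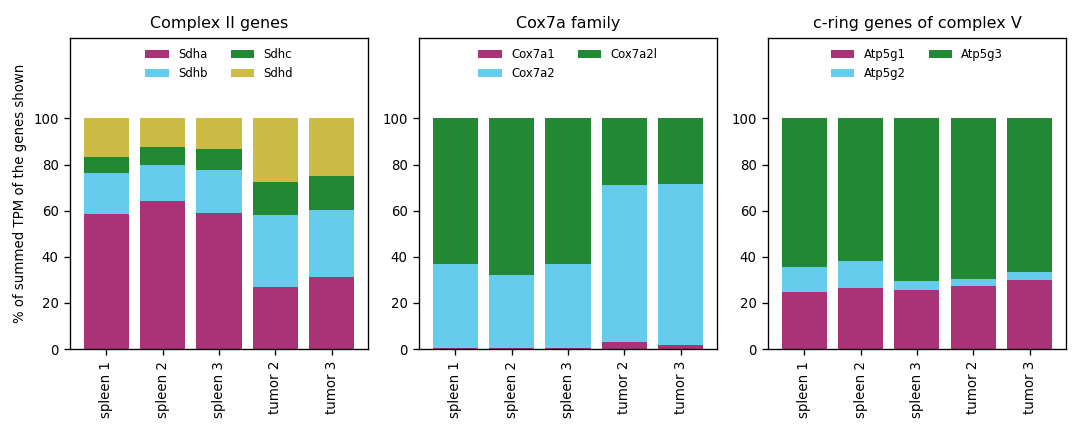
Share of each gene in the summed TPM of its group, per library: the 4 succinate dehydrogenase genes, the Cox7a family and the Atp5g genes. Sdha goes from 58.7% to 64.2% in the 3 spleen libraries to 26.9% and 31.4% in the 2 tumor libraries, and Cox7a2l from 62.9% to 67.9% to 28.8% and 28.4%.

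The stretches just upstream of the start sites of Sdha and Sdhd are shown because these genes had the lowest and the highest difference within complex II. Sequences are from RefSeq (GRCm38.p6), on the strand of the gene, 120 bases ending upstream of the RefSeq and GENCODE starts. Sdha is at chr13:74350281-74350400, minus strand, and Sdhd at chr9:50603850-50603969, minus strand. Capitals mark the ETS core letters CCGGAAG or their reverse complement CTTCCGG, the core that the GABP factors bind.
Sdha: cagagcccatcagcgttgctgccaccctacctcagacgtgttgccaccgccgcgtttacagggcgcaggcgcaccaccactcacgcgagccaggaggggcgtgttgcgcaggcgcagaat
Sdhd: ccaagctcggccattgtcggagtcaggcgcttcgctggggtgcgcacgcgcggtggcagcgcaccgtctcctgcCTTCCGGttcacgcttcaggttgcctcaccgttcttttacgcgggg
The Sdhd stretch holds the core once, on the reverse strand, and the Sdha stretch does not hold these letters.

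Complex III, the cytochrome bc1 complex, passes electrons from coenzyme Q to cytochrome c. On deposited TPM 6 of its 8 genes rose and none fell, with a median of 1.01. With equal totals 3 rose and 2 fell. Beside these stand 40.9% rises and 18.1% falls among all tested genes on deposited TPM, and 21.0% and 51.3% with equal totals. Uqcrq, a small subunit near the cytochrome b core, had the largest difference of the complex, from a spleen level under that of the olfactory receptor genes: 10.4, 10.5 and 11.8 TPM in spleen against 37.0 and 45.5 TPM in tumor (1.83 ± 0.21, limma, adjusted p 1.1e-10). Uqcrb, another small subunit, stood at 49.6, 64.0 and 53.0 against 154 and 156 TPM (1.47 ± 0.21), but 54.3% of its 31-base stretches occur in other genes. Uqcr11 stood at 11.8, 16.1 and 16.6 against 36.2 and 39.2 TPM (1.30 ± 0.21). In these 3 genes the groups were far apart.

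The hinge subunit gene Uqcrh, whose protein lies beside cytochrome c1, was the most abundant of the complex in spleen and differed least. It stood at 95.7, 127 and 106 TPM in spleen and 115 and 129 TPM in tumor (0.16 ± 0.21). Uqcrc2, one of the large core proteins, stood at 32.9, 45.8 and 37.9 against 44.1 and 45.8 TPM (0.22 ± 0.21). Both overlapped between tissues and were not called. The other core protein gene, Uqcrc1, stood at 10.1, 14.4 and 12.2 against 23.0 and 27.0 TPM and rose (0.98), as did the Rieske iron-sulfur protein gene Uqcrfs1 (0.98). With equal totals Uqcrh and Uqcrc2 were lower in tumor (-0.76 and -0.69). The ratio of Uqcrq to Uqcrh was 0.108, 0.0826 and 0.111 in spleen and 0.322 and 0.352 in tumor. That of Uqcrc1 to Uqcrc2 was 0.308 to 0.321 against 0.522 and 0.590. Neither ratio overlapped. Because Uqcrq and Uqcrh had the largest and the smallest difference of the complex, the separation of their ratio follows from that choice. Uqcrq lay under the olfactory receptor level in every spleen library, so its ratio to Uqcrh there is less certain. Both pairs were chosen with these values known, so the separations are no separate support.

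Complex IV, cytochrome c oxidase, had the largest change in share, and it held both falling members. Of its 14 genes, 11 rose and 2 fell on deposited TPM (median 1.27), and with equal totals 7 rose and 2 fell. All tested genes gave 40.9% rises and 18.1% falls on deposited TPM, and 21.0% and 51.3% with equal totals. Cox5b, a zinc-binding subunit on the matrix side, stood at 39.5, 61.3 and 50.8 TPM in spleen and 184 and 194 TPM in tumor (1.91 ± 0.21, limma, adjusted p 6.5e-11), the largest difference of any member on this scale. As a ratio of mean TPM, those of Cox7a1 (5.04) and Uqcrq (3.79) were above that of Cox5b (3.74). Cox7a1 became a member only through its tumor libraries and lies under the olfactory receptor level in every library, so its ratio was partly fixed by the choice. Uqcrq lies under that level in every spleen library. Cox5a, its neighbor in the matrix domain, stood at 21.9, 34.0 and 27.6 against 91.3 and 116 TPM (1.87 ± 0.22). Cox8a, a small membrane subunit, stood at 15.7, 18.0 and 17.1 against 57.1 and 60.9 TPM (1.74 ± 0.21). In all 3 genes both tumor libraries lay far above the highest spleen library. Cox5a and Cox5b kept their proportion, with Cox5b at 64.3% to 64.8% of their sum in spleen and 66.8% and 62.6% in tumor. Of the 31-base stretches of Cox5b, 28.7% occur in other genes.

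The Cox7a genes changed places. Cox7a2l encodes a protein known as a supercomplex assembly factor, which joins complexes III and IV. It stood at 89.9, 121 and 101 TPM in spleen and at 53.0 and 61.6 TPM in tumor (-0.84 ± 0.21, limma, adjusted p 0.00057), and both tumor libraries lay below all spleen libraries. Cox7a2, the subunit used in most tissues, stood at 52.1, 56.0 and 57.9 against 125 and 151 TPM (1.30 ± 0.21). Cox7a1, the form of heart and skeletal muscle, stood at 0.832, 0.999 and 1.09 against 5.87 and 3.96 TPM (1.57 ± 0.22), under the olfactory receptor level in every library. Cox7a2l made up 62.9%, 67.9% and 63.0% of the family's sum in spleen and 28.8% and 28.4% in tumor, and Cox7a2 took 31.5% to 36.5% against 68.0% and 69.8%. The fall of Cox7a2l held in every leave-one-out fit and under the scalings other than T cell identity, where it was higher (1.32). Of its 31-base stretches, 21.4% occur in other genes.

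The other fall, that of Cox7b2, concerned a gene at background level: 4.59, 1.66 and 1.76 TPM in spleen and 0.502 and 1.99 TPM in tumor (-0.70 ± 0.26). Its groups overlapped, spleen replicate 1 stood apart, and the call was lost without spleen replicate 1 (-0.36) or tumor replicate 2 (-0.21). In the remaining families 1 gene made up nearly all of the sum in every library: Cox4i1 (99.1% or more), Cox6a1 (97.4% or more), Cox6b1 (97.3% or more), Cox7b (90.8% or more), Cox8a (93.9% or more) and, beside Ndufa4l2, Ndufa4 (97.5% or more). The forms of lung, testis and muscle (Cox4i2, Cox6b2, Cox6a2 and Cox8b) therefore stayed marginal in both tissues. Cox4i1, the subunit at which ATP acts on the enzyme, stood at 67.6, 85.6 and 73.5 against 151 and 177 TPM (1.11 ± 0.21), Cox6a1 at 17.4, 24.3 and 21.5 against 64.7 and 70.7 TPM, and Cox6b1 at 54.8, 56.9 and 58.9 against 174 and 180.2 TPM. None of these 3 genes overlapped between tissues.

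**Figure D5:**
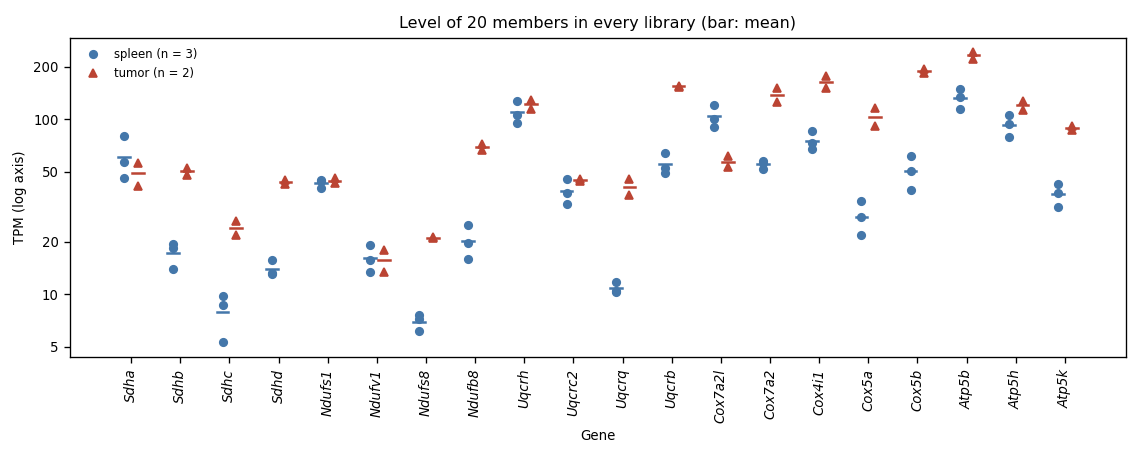
Level of 20 of the genes in every library, in TPM on a log axis; circles are the 3 spleen libraries, triangles the 2 tumor libraries and bars the group means. On deposited TPM, Sdha, Ndufs1, Ndufv1, Uqcrh and Uqcrc2 overlap between tissues, Cox7a2l is lower in tumor, and the other 14 genes are higher in both tumor libraries than in any spleen library.

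Complex V, the ATP synthase, has a catalytic head (F1), a rotating c-ring, a peripheral stalk and small membrane subunits. On deposited TPM 13 of 16 genes rose and none fell, with a median of 1.02; with equal totals 2 rose and 3 fell, and without tumor replicate 3 the count of rises was 10. For all tested genes the shares were 40.9% rises and 18.1% falls on deposited TPM, and 21.0% and 51.3% with equal totals. The range of differences in complex V was narrow: none passed the test against a 2-fold change. Of the 5 F1 genes 4 rose, of the 3 c-ring genes 2, of the 4 stalk genes 3, and all 4 genes of the small membrane subunits, a grouping made after the values were seen. The summed level was 1.70 times higher in tumor for F1 and for the stalk and 2.22 times higher for the small membrane subunits. As a share of the members' sum, the small membrane subunits went from 8.68%, 8.10% and 8.57% in spleen to 9.65% and 9.73% in tumor, and the stalk from 8.88% to 9.18% down to 8.03% and 7.98%.

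Atp5b, the catalytic beta subunit, had the highest TPM, a level per transcript length, of all members in every library. It stood at 114, 148 and 134 TPM in spleen and 222 and 242 TPM in tumor (0.81 ± 0.21, limma, adjusted p 0.00065). Its partner in the hexamer, Atp5a1, stood at 31.3, 42.3 and 38.3 against 46.4 and 56.5 TPM and was not called (0.46 ± 0.21, limma, adjusted p 0.059). It was called higher without spleen replicate 2 (0.55), with a filter at 5 TPM and with a pseudocount of 10 (0.38). For both, the tumor libraries lay above all spleen libraries, by a small margin for Atp5a1. With equal totals the differences were -0.11 for Atp5b and -0.46 for Atp5a1, which was then called lower. The ratio of Atp5b to Atp5a1 was 3.65, 3.51 and 3.49 in spleen and 4.79 and 4.28 in tumor.

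Among the stalk genes Atp5h stood at 79.6, 106 and 94.0 TPM in spleen and 113 and 128 TPM in tumor (0.37 ± 0.21, not called). It was called higher without spleen replicate 2 (0.47) and lower with equal totals (-0.55), and 46.9% of its 31-base stretches occur in other genes. The small membrane subunits Atp5k, Atp5j2 and Atp5l differed most in the complex, by 1.24, 1.22 and 1.19. Of the 31-base stretches of Atp5l, 69.6% occur in other genes, so its level is uncertain. Atp5k stood at 31.4, 42.9 and 37.8 against 86.5 and 91.9 TPM, with both tumor libraries clear of the spleen range. The c-ring protein is encoded by 3 genes that give the same mature protein. Atp5g3 made up 61.8% to 70.4% of their sum in spleen and 69.4% and 66.5% in tumor, and Atp5g1 24.7% to 26.5% against 27.2% and 30.0%. Atp5g2 made up 10.8%, 11.7% and 3.91% in spleen and 3.31% and 3.43% in tumor. There spleen replicate 3 stood with the tumor libraries, and without it Atp5g2 was called lower (-0.61). Of the 31-base stretches of Atp5g2, 40.2% occur in other genes.

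The lists of genes that assemble the complexes differed in their counts of rises and falls, to be read beside the 40.9% of all tested genes that rose and the 18.1% that fell. These lists hold other genes of the pathway and were chosen with results of these data known. Of the 20 tested complex IV assembly factors 12 rose and none fell (median 0.83), led by Cox17, the copper chaperone, at 17.2, 23.8 and 18.9 TPM in spleen against 111 and 97.0 TPM in tumor (2.34 ± 0.21). Of the 15 complex I assembly factors 3 rose and 4 fell (median -0.06), with Ndufaf3 higher (1.11) and Tmem186 lower (-1.08). The 4 complex II factors gave 2 rises and 1 fall, Sdhaf3 (-0.51), which was not called without spleen replicate 1 or 3 or tumor replicate 2 or 3. The 6 complex III factors gave 3 rises, led by Uqcc2 (1.33), and 1 fall, Lyrm7 (-0.87), the chaperone for the Rieske protein. Tmem186, Sdhaf3 and Lyrm7 lay under the olfactory receptor level in every library, and Ndufaf3 in every spleen library. Their low values are less certain. These short lists leaned on single libraries: leaving out spleen replicate 3 or tumor replicate 3 left 1 rise each among complex I, II and III factors, leaving out tumor replicate 2 left 1 among complex III factors, and complex I factors gave 2 falls when spleen replicate 3 or tumor replicate 2 was left out. With equal totals the complex IV list gave 6 rises and 6 falls and the complex I list none and 13, where 21.0% of tested genes rose and 51.3% fell.

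Among the 6 complex V assembly genes and its inhibitor, 2 rose and 1 fell, Atpaf1 (-0.58), which was not called without spleen replicate 2 or either tumor library. Atpif1, the inhibitor that blocks ATP hydrolysis by the synthase, stood at 9.24, 9.95 and 9.31 TPM in spleen and 47.6 and 50.5 TPM in tumor (2.25 ± 0.21, limma, adjusted p 1.5e-13). That difference was larger than that of any subunit, and the groups were far apart. Atpif1 lay under the olfactory receptor level in every spleen library, so the size of its difference is less certain. Of the 16 genes for cytochrome c and coenzyme Q, 7 rose and none fell (median 0.36), a share of rises near that of all tested genes. With equal totals 3 rose and 7 fell. The list also holds Cyc1 of complex III, which rose from 9.34, 13.0 and 9.91 to 15.5 and 19.9 TPM (0.68). Cycs, cytochrome c, stood at 11.8, 13.7 and 12.6 against 60.2 and 56.2 TPM, and Coq10b, a coenzyme Q binding protein, at 7.17, 7.75 and 9.49 against 113 and 120.1 TPM (3.70 ± 0.21). Coq10b also lay under the olfactory receptor level in every spleen library.

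Of 16 nuclear regulators of the pathway, 3 rose, 2 fell and 11 did not pass (median -0.06); without spleen replicate 2, 6 rose, and with equal totals 1 rose and 12 fell (median -0.81). Slirp, a stabilizer of mitochondrial messenger RNA, rose from 13.3, 15.8 and 12.8 to 76.2 and 83.0 TPM. Polrmt, the mitochondrial RNA polymerase, fell from 5.92, 4.49 and 6.13 to 1.45 and 2.49 TPM (-1.15). Nrf1 (0.28), Gabpa (0.45), Yy1 (0.36) and Tfam (-0.15), which act on nuclear subunit genes or mitochondrial DNA, were not called. Gabpb1 (0.88), the partner of Gabpa, and the nuclear receptor gene Esrra (0.87) rose, and the coactivator gene Ppargc1b fell (-0.92). Of 6 genes that link hypoxia to electron transport, 4 rose and 1 fell (3 and 2 with equal totals): Bnip3, a mitophagy receptor, stood at 2.96, 3.45 and 3.39 against 122 and 113 TPM (4.79), and Pdk1, which limits the entry of pyruvate, at 48.4, 75.4 and 45.4 against 21.3 and 25.1 TPM (-1.21). Polrmt and Ppargc1b lay under the olfactory receptor level in every library, and Esrra and Bnip3 in every spleen library. Their low values are less certain.

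Subunit transcripts are short, and length moved with the differences. The 80 principal transcripts measured 371 to 3171 bases, with a median of 773. Across members, which share the same libraries, the log2 difference had a Pearson r of -0.25 with log2 length (n = 80), and across 12964 tested genes -0.11. Among other tested genes under 500 bases the median difference was 0.83, and among those of 2000 bases or more 0.17. The members' medians in the same classes were 1.14 and 0.46, and the members' median was above that of the other genes in each of the 6 length classes. The part of length in the results was not tested. The level in spleen had a Pearson r of -0.04 with the difference across the 80 members.

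The members' promoters were searched on both strands for 3 motifs tied to respiratory genes. RefSeq windows of 300 bases were used (250 before to 50 after the start). Windows were found for 66 of the 80 members (71 windows). The NRF1 core GCATGCGC was in 14.1% of member windows and in 2.71% of all 32851 windows. The ETS core CCGGAAG was in 22.5% against 8.86%, and the YY1 core AAGATGG in 14.1% against 6.34%. Among the 52 members with a window that rose, 8, 13 and 9 held the NRF1, ETS and YY1 cores; among the 14 that did not rise, 2, 3 and 1 did. The comparison windows were not limited to the tested genes. A match is a description of letters and not of binding. Uqcr11 of complex III, at chr10:80406831-80406950, minus strand, is shown as a rising gene with the ETS core in its forward form, in capitals.
Uqcr11: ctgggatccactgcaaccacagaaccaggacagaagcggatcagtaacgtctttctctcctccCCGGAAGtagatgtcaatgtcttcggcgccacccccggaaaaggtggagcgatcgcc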

How the data were processed

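Each deposited file holds 1 value per gene for 1 library. The unit was taken as TPM from the deposited values, which are not whole numbers and sum to less than 1000000. In the submitters' processing notes kallisto, DESeq2 and mm10 are named, with no version or role. Members and lists were chosen with earlier results of these data known, and the subunit groupings and the gene pairs for ratios after their values were seen. Values were tested as log2(TPM + 1) for the 12979 genes whose mean reached 1 TPM, with limma 3.58.1 in R 4.3.3: a two-sided test of tissue alone, with the variance trended on the mean, Benjamini-Hochberg adjustment and calls at an adjusted p below 0.05. Residual degrees of freedom were 3 and prior degrees of freedom 44.1. The fit was tested on simulated data. The values of 1 complex I gene are not reported here. No fold change here comes from counts, and a difference on this scale understates the change of low genes.

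Named genes were, per complex, the 2 highest in mean level and the 3 with the largest and the 3 with the smallest difference, all of complex II, isoform families, and the called gene with the smallest p in each direction of each list; other genes were named after their values were seen. Median ratios, equal totals, the upper quartile, totals without the top 20 genes, T cell identity genes and the members themselves were tried as scalings, besides filters, pseudocounts, a stricter threshold, a replicate block and leaving out each library. Transcript lengths and shared 31-base stretches are from GENCODE release 21 of mouse. Lengths are those of APPRIS principal transcripts, and stretches were pooled over all protein-coding transcripts of a gene. Over 10% of the stretches occurred in another gene for 28 members, and over 25% for 13.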

Additional observations from a re-analysis of the deposited data

How the results depend on the processing

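The counts moved with the scaling and the test. Of the 80 members 62 rose, 2 fell and the median was 1.02; the rises, falls and median were 23, 21 and 0.14 with equal totals, 20, 22 and 0.059 with totals that omit the top 20 genes, 26, 22 and 0.13 scaled on the members, and 0 falls and a median of 3.09 scaled on T cell identity genes. All 12979 tested genes gave 5309 rises and 2347 falls on deposited TPM. They gave 2724 and 6662 with equal totals, and 2648 and 7321 with totals that omit the top 20 genes. Scaled on the members they gave 2785 and 6896, and on T cell identity genes 12327 and 111. With the upper quartile 14 members fell (median 0.36), beside 5715 of all tested genes. Against a 2-fold change 11 members rose and 0 fell, beside 2199 and 274 of all tested genes. A mean of at least 5 TPM, no filter, a pseudocount of 10 (median 0.75), a threshold of 0.01 and the replicate block each left 1 fall. In this order, 1456 of 8535, 2270 of 19685, and then 2117, 1552 and 2013 of 12979 tested genes fell. Leaving out 1 spleen library gave 4633 to 5842 rises and 1697 to 2623 falls among all tested genes. Leaving out 1 library gave 51 (without tumor replicate 3) to 68 rises, 1 (without tumor replicate 2) to 3 falls (without spleen replicate 3) and medians of 0.93 to 1.10.

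With equal totals, the upper quartile, the top 20 genes left out and member scaling, in this order, signs turned for complex III assembly factors (medians -0.56, -0.37, -0.63 and -0.57), cytochrome c and coenzyme Q genes (-0.38, -0.20, -0.44 and -0.38), Ndufa4 (-0.30, -0.066, -0.38 and -0.31), Ndufa10 (-0.87, -0.64, -0.95 and -0.88), Uqcrh (-0.76, -0.53, -0.84 and -0.77), Uqcrc2 (-0.69, -0.46, -0.77 and -0.70) and Atp5h (-0.55, -0.32, -0.63 and -0.56). The same held for Atp5a1 (-0.46, -0.22, -0.54 and -0.47), and all but the upper quartile turned Atp5b (-0.11, -0.19 and -0.12). The top 20 setting also turned Ndufa3 (-0.034), Atp5mpl (-0.012), complex IV assembly factors (median -0.059) and complex I (median -0.072), which member scaling put at -0.0037. T cell identity scaling turned Ndufs3 (2.04), Ndufv1 (2.02), Sdha (1.85), Cox7a2l (1.32), Cox7b2 (0.64), Cox6b2 (1.11), Atp5g2 (1.61), Tmem186 (0.47), Sdhaf3 (0.84), Lyrm7 (0.77), Atpaf1 (1.43), Polrmt (0.53) and Pdk1 (0.91). Each of these is a shift of all genes together by construction.

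Replicate numbers 2 and 3 occur in both tissues, but same-numbered libraries deviated together only weakly (r 0.20 and 0.07), so the numbers are not shown to pair them. With the replicate block 56 members rose and 1 fell, at a median of 0.93, where 4877 of 12979 tested genes rose and 2013 fell. Calls lost without 1 library or more, besides those named with their results, were Ndufa5, Ndufab1, Ndufb5, Ndufv3, Ndufa9, Ndufb10, Ndufa4l2, Atp5c1, Atp5e, Atp5j, Sdhaf3 and Atpaf1. Count tests (edgeR, DESeq2) were not run, because the files hold TPM.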
